A study of Homo sapiens with 12 samples.

Results

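The spindle and kinetochore genes described here are 45 genes that act in mitosis, chosen by name from 20003 genes in an RNA-seq table, and all 45 were found and passed the filter on low values in each line. They comprise mitotic cyclins and their regulators, spindle checkpoint and kinetochore proteins, mitotic kinesins, spindle and cytokinesis factors, chromosomal passenger subunits, and regulators of mitotic exit. The table came from PC9, HCC827 and H1975, cell lines long established from human non-small-cell lung tumours with activating EGFR mutations, each with a vector expressing ZNF263 or with a control vector. All 6 groups, controls included, had been grown in DMEM under stepwise osimertinib, an inhibitor of mutant EGFR, and each had 2 libraries made from TRIZOL-extracted RNA with a SMARTER mRNA-seq kit. OR stands in each title beside the line's name, without explanation, and no clone, vector promoter or drug concentration is given. The 2 libraries of a group are numbered, but no label says that they were separate cultures. The p-values therefore reflect the spread between libraries alone, and that spread may be technical. AURKA, the mitotic kinase Aurora A, was lower with ZNF263 in every line, and the question put to the data was whether the other mitotic genes were lower with it.

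Mitotic genes are transcribed late in the cell cycle and are known to be controlled as a group. In resting and early cycling cells the DREAM complex holds them down, and in G2 the MuvB core with MYBL2 and FOXM1 activates them. These complexes act at promoters that carry the cell cycle genes homology region, called the CHR element, and boxes bound by NF-Y. The proteins attach chromosomes to spindle microtubules, delay anaphase until attachment is complete, and then separate the chromosomes and divide the cell. Aurora A matures centrosomes and builds the spindle. ZNF263 is a zinc finger protein with a KRAB domain that is known to bind purine-rich DNA.

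The promoters of 8 members are shown because some of these genes were called higher and others lower with ZNF263. All 8 carry at least 1 NF-Y box, and some carry the CHR element as well. CDC20, KIF20A, KIF18A and INCENP were higher with ZNF263 in H1975, PRC1 was higher in PC9, and NEK2, CDK1 and BUB1 were lower in H1975. Each sequence is the 110 bases before an annotated transcription start, read on the gene's own strand from RefSeq (GRCh38.p14). Capitals mark the CHR element TTTGAA and the NF-Y box CCAAT on either strand. In order, the windows are chr1:43358871-43358980, chr5:138179002-138179111, chr11:28108157-28108266, chr11:62123901-62124010, chr15:90994536-90994645, chr1:211675622-211675731, chr10:60778368-60778477 and chr2:110678064-110678173. KIF18A, PRC1, NEK2 and BUB1 lie on the minus strand. RefSeq lists 2 starts for CDK1, of which the second is shown.
CDC20: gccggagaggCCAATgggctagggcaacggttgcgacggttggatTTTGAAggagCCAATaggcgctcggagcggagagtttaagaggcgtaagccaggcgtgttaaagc
KIF20A: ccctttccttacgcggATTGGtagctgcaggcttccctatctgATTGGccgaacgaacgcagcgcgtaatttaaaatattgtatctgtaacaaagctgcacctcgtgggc
KIF18A: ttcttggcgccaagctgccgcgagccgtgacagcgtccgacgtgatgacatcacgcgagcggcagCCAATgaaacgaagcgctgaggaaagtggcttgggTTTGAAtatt
INCENP: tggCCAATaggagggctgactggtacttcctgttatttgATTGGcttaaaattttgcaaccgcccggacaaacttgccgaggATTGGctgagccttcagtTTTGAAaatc
PRC1: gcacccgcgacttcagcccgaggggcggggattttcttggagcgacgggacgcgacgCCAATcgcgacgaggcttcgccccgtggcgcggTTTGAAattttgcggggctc
NEK2: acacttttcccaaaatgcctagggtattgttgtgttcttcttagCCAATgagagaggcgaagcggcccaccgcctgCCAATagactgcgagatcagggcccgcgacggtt
CDK1: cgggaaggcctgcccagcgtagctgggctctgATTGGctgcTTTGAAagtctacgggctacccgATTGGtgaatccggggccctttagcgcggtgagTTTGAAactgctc
BUB1: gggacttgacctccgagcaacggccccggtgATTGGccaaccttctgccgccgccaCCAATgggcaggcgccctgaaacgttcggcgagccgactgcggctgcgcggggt

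A RefSeq window from 250 bases before to 50 after the start was given for 39 of the 45 members, and 5 of them had more than 1 window. At least 1 TTTGAA lay in the windows of 29 members (74.4%), against 13.6% of 9924 other tested genes and 18.2% of 27305 genes with a window. At least 1 CCAAT lay in those of 32 members (82.1%), against 43.3% and 39.7%. Both were present in 25 members (64.1%), against 7.42% of the other tested genes, and 2 matches of the one overlapped a match of the other. CENPE, KIF2C and MYBL2 held neither in these windows. GGAGGA, a short purine-rich run, lay in the windows of 10 members (25.6%), against 48.3% of the other tested genes and 40.7% of all. Both strands were searched, and a match describes the sequence only. In the sequences above, CDC20, KIF18A, INCENP and PRC1, which were higher with ZNF263, carry TTTGAA beside 1 or more NF-Y boxes, and so does CDK1, which was lower. KIF20A, which was higher in H1975, and NEK2 and BUB1, which were lower there, each carry 2 NF-Y boxes and no TTTGAA. NEK2 was also called higher in HCC827. The falls of NEK2 and CDK1 in H1975 were not called once the median change of neighbouring genes was taken off. Nor were the rises of PRC1 in PC9 and NEK2 in HCC827. The call of PRC1 was kept in 9 of 20 alternative fits. These genes were picked by their calls, so they cannot show whether promoter and direction go together.

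**Figure D1:**
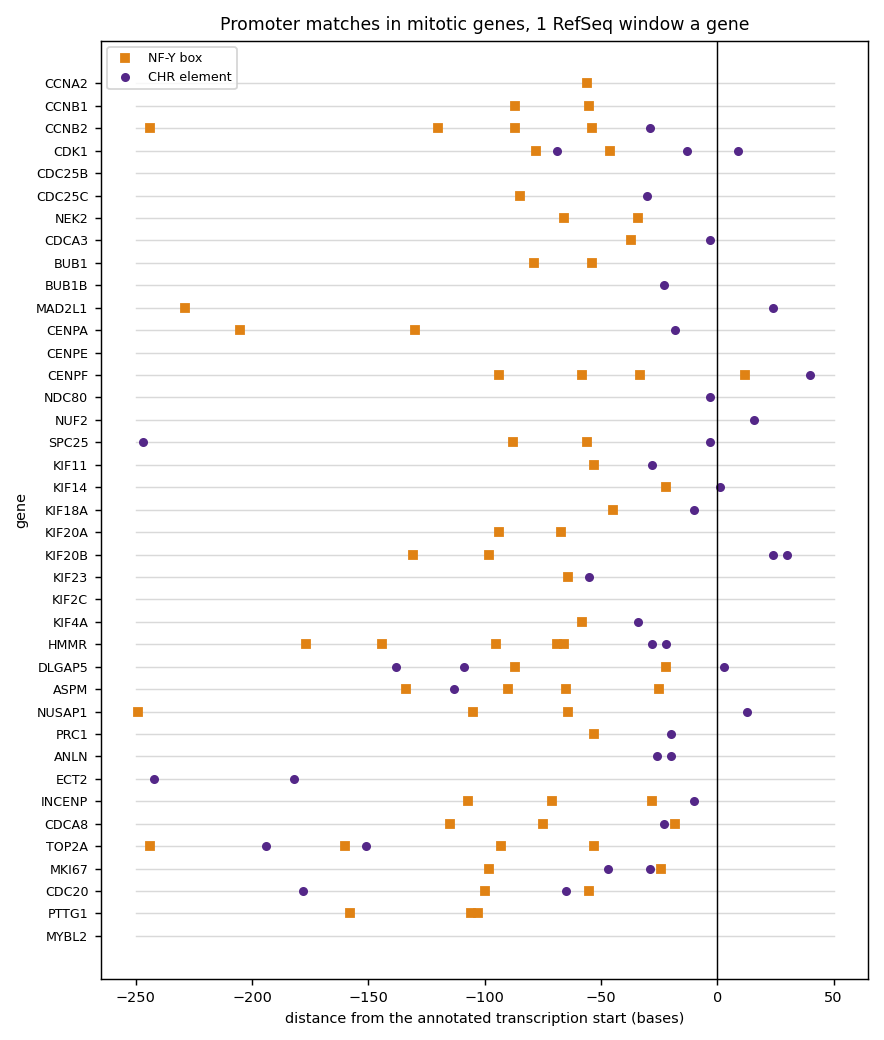
Distance in bases from the annotated start (x axis, 0 is the start) of each CHR element and NF-Y box in 1 RefSeq window for each of 39 members (y axis). NF-Y boxes lie mostly before the start and CHR elements closer to it. CDC25B, CENPE, KIF2C and MYBL2 show no match in the window drawn, and CDC25B has NF-Y boxes in other windows.

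The labels held for ZNF263 itself, which was higher in both ZNF263 libraries of each line, at 9.55 and 9.11 against 39.3 and 39.0 FPKM (control against ZNF263, the order used throughout) in PC9, 13.2 and 11.8 against 19.6 and 19.8 FPKM in HCC827 and 10.2 and 9.63 against 39.1 and 39.8 FPKM in H1975. Values were deposited as FPKM, fragment counts scaled for gene length and library size. Libraries held 10672 to 10997 genes at 1 FPKM or more, and 1 FPKM of the median gene stood for 65.4 to 79.5 reads in PC9 and HCC827 and 121 to 131 reads in H1975. The values of all 45 members were whole multiples of 1 read in each line. At least 334 reads stood behind each member's values in PC9, 200 in HCC827 and 364 in H1975, with medians of at least 1733, 1431 and 2647. The gene lengths implied by the FPKM were the same in HCC827 and H1975 for 45 of 45 members but differed in PC9 for 44, so levels in PC9 cannot be set against those of the other lines. Ratios of FPKM within a line do not depend on this length. The changes given below, on log2(FPKM + 1), depend on it through the added 1, most for genes of low FPKM.

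All members were well above the filter of 1 FPKM. Control means ran from 7.45 FPKM (CENPE) to 168 FPKM (TOP2A) in PC9, from 4.91 (KIF14) to 241 (CDC20) in HCC827, and from 5.64 (KIF18A) to 123 (UBE2C) in H1975. The medians over the members were 31.0, 25.9 and 25.5 FPKM. CENPE, the kinetochore motor that moves chromosomes to the metaphase plate, was near the bottom in each line, at 7.33 and 7.57 against 8.57 and 7.205 FPKM in PC9, 5.56 and 7.35 against 6.64 and 6.78 FPKM in HCC827 and 5.62 and 5.71 against 5.45 and 6.23 FPKM in H1975. Its groups overlapped in every line. KIF14, a kinesin of the midbody, stood at 12.7 and 12.7 against 11.5 and 12.5 FPKM in PC9, 4.23 and 5.59 against 5.84 and 5.42 FPKM in HCC827 and 5.89 and 6.35 against 5.85 and 5.57 FPKM in H1975, and was called in none. SPC25, a subunit of the NDC80 complex, stood at 12.3 and 13.2 against 12.2 and 12.9 FPKM, 6.54 and 8.05 against 7.87 and 7.58 FPKM and 8.42 and 9.53 against 8.24 and 10.1 FPKM in the same order, and its groups overlapped in every line.

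No member was called lower with ZNF263 in PC9 or HCC827, the lines in which AURKA was lowest relative to its controls. A gene was called where limma, fitted to log2(FPKM + 1) over the whole table, gave a Benjamini-Hochberg adjusted p under 0.05. In PC9 AURKA stood at 31.1 and 33.4 FPKM in the control libraries and 10.02 and 12.2 FPKM with ZNF263 and fell by 1.46 ± 0.095 (SE, limma adjusted p = 9.89e-07) on the log2 scale. In HCC827 it stood at 43.3 and 43.5 against 21.7 and 26.8 FPKM and fell by 0.82 ± 0.095 (0.000114). In H1975 it stood at 48.7 and 46.0 against 36.8 and 36.2 FPKM and fell by 0.37 ± 0.095 (0.00435), and its groups did not overlap in any line. The AURKA values were whole multiples of 1 read in H1975 but not in PC9 or HCC827, unlike those of all members and of 99.3% and 99.6% of 2000 genes sampled in these lines. How they were made is not given, so the falls of AURKA in PC9 and HCC827, against which the members are set, are in doubt to that extent. In PC9, 5 members rose (CDC25B, CDC25C, ASPM, NUSAP1 and PRC1), 0 fell and 40 were not called, and limma gave 8 higher and 0 lower at an unadjusted p under 0.05. The called share was 11.1% against 11.3% of all 12623 genes tested (7.21% higher and 4.12% lower), so the members were called about as often as any gene. In HCC827, 4 rose (TOP2A, NEK2, CCNB2 and INCENP), 0 fell and 41 were not called, with 14 higher and 0 lower in limma at an unadjusted p under 0.05. That share was 8.89% against 19.5% of 12266 genes (6.44% lower), so members were called less often there than genes at large, a difference that was not tested. In bulk RNA, fewer cells in mitosis and less RNA per mitotic cell cannot be told apart.

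The lowest end of any member's 95% interval was -0.28 in PC9 (KIF14) and -0.30 in HCC827 (CDCA8), while the intervals of AURKA ran from -1.67 to -1.26 and from -1.03 to -0.62. The interval of no member reached that of AURKA in these lines, and the intervals of 18 members did in H1975, where that of AURKA ran from -0.57 to -0.16. The median change of the members was 0.054 in PC9 and 0.11 in HCC827, against 0 and 0.045 over all genes tested. The HCC827 median was 0.047 with median-of-ratios scaling, 0.048 less the median change of neighbouring genes, and 0.054 and 0.063 without control replicate 1 or ZNF263 replicate 2 of that line. Changes were above 0 for 34 of 45 members in PC9, 40 in HCC827 and 30 in H1975. The share of all genes above 0 was not counted, so these numbers have no background beside them. In HCC827 the median over all genes was itself above 0 as deposited, at 0.045, and was -0.0041 with median-of-ratios scaling. Both ZNF263 libraries lay above both controls for 23 members in PC9 (28.4% of all genes) and below them for 4 (29.2%). In HCC827 these numbers were 19 above (35.2%) and 1 below (18.7%), and that 1 member was UBE2C.

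**Figure D2:**
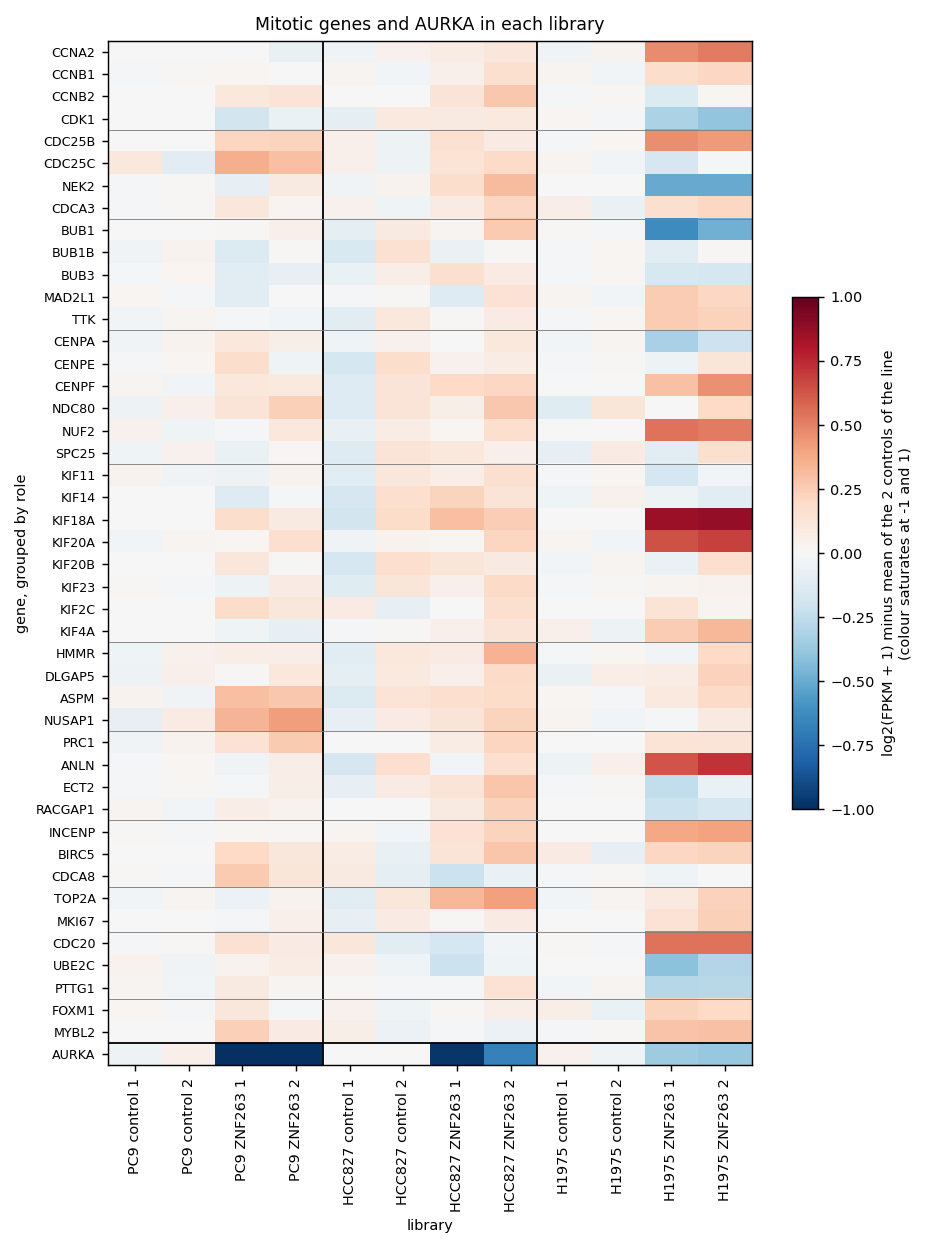
log2(FPKM + 1) of each member and of AURKA in each of the 12 libraries, less the mean of the 2 controls of the same line; red is higher and blue is lower. The AURKA line at the bottom is blue in every ZNF263 library, while members in PC9 and HCC827 are mostly white to pale red and H1975 holds both strong red (KIF18A, 0.87) and strong blue (BUB1, -0.56).

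Most of the few calls in these lines depended on which libraries were in the fit. Leaving out PC9 control replicate 1, control replicate 2, ZNF263 replicate 1 or ZNF263 replicate 2 left 1, 1, 2 and 1 members called higher in PC9. None of the 5 calls of PC9 was kept in every alternative. In HCC827, 12 members rose and 1 fell (CDC20) without control replicate 2, and 1 rose (TOP2A) without ZNF263 replicate 2. The members moved together between replicates there, since 31 of 45 were higher in control replicate 2 than in replicate 1, by a median of 0.13 on the log2 scale against 0.0082 over all genes. With ZNF263, 38 of 45 were higher in replicate 2, by a median of 0.10 against -0.0072. The part of this difference in the calls was not tested. Over all genes the scaling turned the balance in HCC827 from 1596 higher and 790 lower as deposited to 1071 and 1307 with median-of-ratios scaling and 1064 and 1045 with quantile normalization. With median-of-ratios scaling TOP2A was the only member still called in HCC827.

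In H1975 many members changed, and in both directions. Of the 45, 18 rose, 8 fell and 19 were not called, a called share of 57.8% against 64.2% of all 12258 genes. Higher calls made up 40.0% of members against 32.1% of all genes, and lower calls 17.8% against 32.1%. The median change was 0.098, against 0.0025 over all genes. With ZNF263, 35 of 45 members were higher in replicate 2 than in replicate 1, by a median of 0.048 against 0 over all genes, and the median change was 0.19 without ZNF263 replicate 1 and 0.072 without replicate 2. The 2 ZNF263 libraries lay above both controls for 24 members (41.7% of all genes) and below both for 11 (40.8%). Markers of cell identity moved with these changes. The summed level of 6 epithelial markers went from 2286 to 2330 FPKM in the controls to 1468 to 1498 FPKM with ZNF263 (1 rose, 5 fell, EPCAM by -2.79), and that of 7 fibroblast markers from 30.8 to 34.0 FPKM to 175 to 179.6 FPKM. Of the latter, 2 rose and 2 fell, the rise of COL1A2 by 3.43 took up most of the sum, and none was at 0. Their part in the changes of the mitotic genes was not tested.

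**Figure D3:**
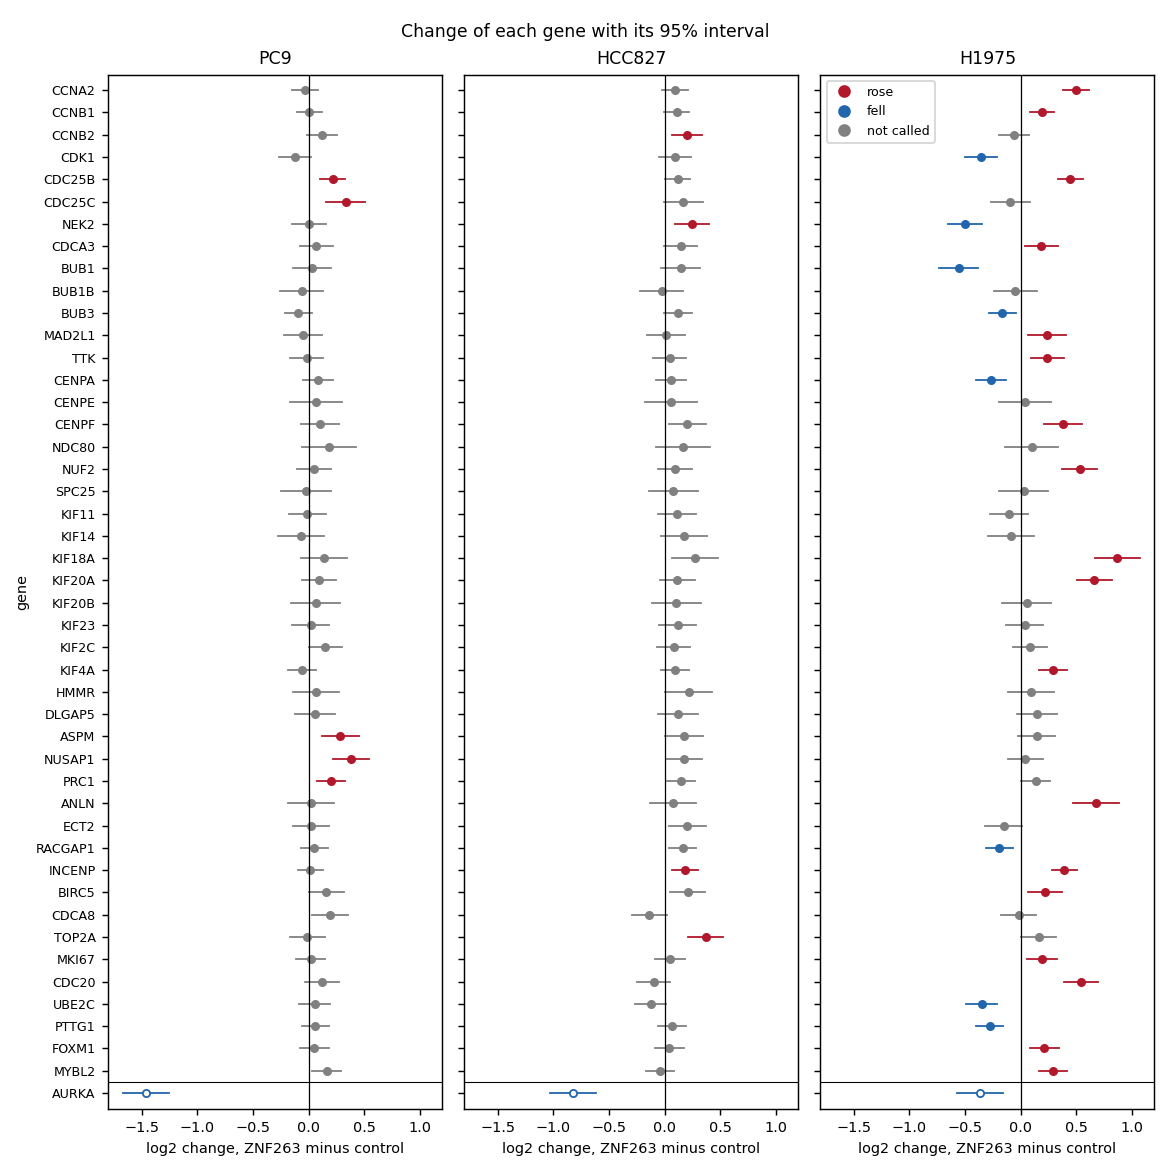
Change of each member and of AURKA (open symbol) in each line, as ZNF263 minus control on the log2(FPKM + 1) scale (x axis), with 95% intervals from limma; red rose, blue fell and grey was not called. AURKA lies left of all members in PC9 and HCC827 (-1.46 and -0.82), and among the lower members in H1975 (-0.37).

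Among the mitotic cyclins and their kinase, CCNA2 and CCNB1 rose and CDK1 fell in H1975. Counts within a role, of 2 to 8 genes, stand beside called shares of 11.3%, 19.5% and 64.2% of all genes in PC9, HCC827 and H1975, and no role was tested as a group. CCNA2, cyclin A2, rose by 0.50 ± 0.055 (SE, limma adjusted p = 4.20e-06), from control values of 26.0 and 27.3 to 37.4 and 38.6 FPKM, and CCNB1 by 0.19 ± 0.051 (0.00542). The latter was not called without H1975 control replicate 2. CDK1, the kinase that these cyclins activate, lies on chromosome 10 at 60778331 to 60794852 (GRCh38). It stood at 49.6 and 49.5 against 43.5 and 47.3 FPKM in PC9, 21.9 and 25.1 against 24.99 and 25.2 FPKM in HCC827 and 37.3 and 36.4 against 29.4 and 27.8 FPKM in H1975. It was called in H1975, where it fell by 0.36 ± 0.066 (0.000415) and both ZNF263 libraries were below both controls. CCNB2, cyclin B2 (chromosome 15 at 59105078 to 59125045), stood at 68.8 and 68.9 against 74.2 and 75.6 FPKM in PC9, 37.9 and 38.2 against 41.8 and 46.1 FPKM in HCC827 and 50.2 and 51.2 against 45.9 and 51.4 FPKM in H1975. It rose in HCC827 by 0.20 ± 0.061 (0.0371), a call lost in 13 of 20 alternatives, and its groups overlapped in H1975.

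CDC25B and CDC25C, phosphatases that switch on CDK1, rose in PC9. CDC25B (chromosome 20 at 3786772 to 3806121) stood at 43.3 and 42.8 FPKM in the control libraries and 50.1 and 50.3 FPKM with ZNF263 in PC9, at 59.2 and 55.1 against 63.7 and 60.4 FPKM in HCC827 and at 60.8 and 62.6 against 85.4 and 83.0 FPKM in H1975. All ZNF263 libraries were above all controls within each line. It rose by 0.22 ± 0.052 (SE, limma adjusted p = 0.0164) in PC9, a call lost without any 1 of the 4 PC9 libraries, and by 0.44 ± 0.052 (7.15e-06) in H1975, and the change in HCC827 was 0.12 ± 0.052 (0.133). CDC25C (chromosome 5 at 138285265 to 138338355) stood at 8.24 and 6.9999 against 10.1 and 9.61 FPKM in PC9, 14.8 and 13.7 against 15.7 and 16.4 FPKM in HCC827 and 8.18 and 7.82 against 7.001 and 7.89 FPKM in H1975. It rose by 0.33 ± 0.081 (0.0181) in PC9, a call lost without control replicate 2 or either ZNF263 replicate of that line, while in H1975 it stood at -0.094 (0.334). CDCA3 rose in H1975 by 0.18 ± 0.068 (0.0317), and was not called without control replicate 2 or either ZNF263 replicate of H1975, with that line fitted alone, with a replicate block, or less its neighbours, where it stood at -0.0040.

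NEK2, a kinase that separates the centrosomes and lies on chromosome 1 at 211658657 to 211675630, was the only member called in opposite directions. In HCC827 it stood at 17.6 and 18.6 FPKM in the control libraries and 20.5 and 22.7 FPKM with ZNF263, and rose by 0.24 ± 0.069 (SE, limma adjusted p = 0.0276). In H1975 it went from control values of 14.5 and 14.4 to 9.91 and 9.92 FPKM and fell by 0.50 ± 0.069 (3.34e-05), with the groups far apart. In PC9 its groups overlapped, at 14.2 and 14.4 against 13.5 and 15.3 FPKM. The change in H1975 less that in HCC827 was -0.75 ± 0.098 (3.58e-05). The rise in HCC827 was lost without control replicate 1 or ZNF263 replicate 2 of that line. It was also lost with median-of-ratios scaling and with that line fitted alone. Less the median change of neighbouring genes, neither change was called, at 0.12 (limma adjusted p = 0.247) in HCC827 and -0.027 (0.757) in H1975.

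**Figure D4:**
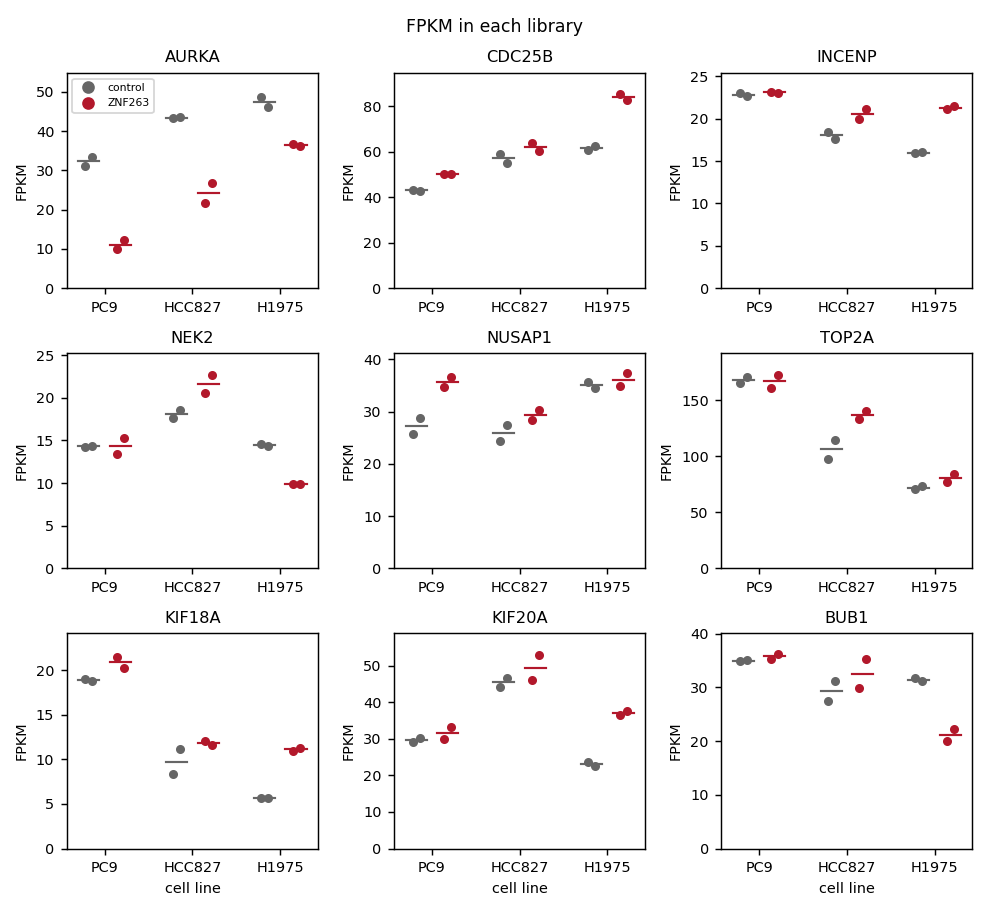
FPKM of AURKA and 8 named members in each library (points) with the group mean (short bars), control in grey and ZNF263 in red, for each line on the x axis; every y axis starts at 0. AURKA is lower with ZNF263 in all 3 lines, CDC25B is higher in all 3, and NEK2 is higher in HCC827 and lower in H1975. PC9 levels rest on other gene lengths and are to be read within that line only.

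No spindle checkpoint gene was called in PC9 or HCC827, where limma gave 0 of 5 at an unadjusted p under 0.05 in either direction, and in H1975 2 rose, 2 fell and 1 was not called. Shares of 11.3%, 19.5% and 64.2% of all genes were called in PC9, HCC827 and H1975, and counts out of 5 cannot be told from these. BUB1, a kinase that recruits the checkpoint to kinetochores (chromosome 2 at 110637698 to 110678114), stood at 34.9 and 35.0 against 35.3 and 36.2 FPKM in PC9 and 27.5 and 31.1 against 29.8 and 35.2 FPKM in HCC827. In H1975 it went from control values of 31.7 and 31.2 to 19.96 and 22.2 FPKM and fell by 0.56 ± 0.080 (SE, limma adjusted p = 4.71e-05), the largest fall of a member in any line. Its partner BUB3 fell there by 0.17 ± 0.056 (0.02), a call lost without any 1 of the 4 H1975 libraries. TTK, the checkpoint kinase MPS1, and MAD2L1, the inhibitor of CDC20, rose in H1975 by 0.24 ± 0.069 (0.00846) and 0.23 ± 0.079 (0.0198). TTK was not called without control replicate 1, and MAD2L1 not without control replicate 2 or ZNF263 replicate 1. BUB1B, the checkpoint protein BubR1, was the only member below 0 in all lines, at -0.063, -0.027 and -0.049, with overlapping groups in each, and in H1975 it stood at 0.22 less the median change of neighbouring genes.

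Of the 6 centromere and kinetochore genes, none was called in PC9 or HCC827, where limma gave 0 and 1 higher and 0 lower at an unadjusted p under 0.05. In H1975, NUF2, a subunit of the microtubule-binding NDC80 complex, went from control values of 21.2 and 21.3 to 31.3 and 30.8 FPKM and rose by 0.53 ± 0.071 (SE, limma adjusted p = 2.71e-05). Its partners NDC80 and SPC25 stood at 0.10 and 0.027 and were not called. CENPF, a kinetochore protein of G2 and mitosis, rose in H1975 by 0.38 ± 0.078 (0.000882), from control values of 25.6 and 25.4 to 31.5 and 35.4 FPKM. CENPA, the histone H3 variant that marks centromeres, went from control values of 35.1 and 36.4 to 28.3 and 30.9 FPKM and fell by 0.26 ± 0.062 (0.00237), and stood at 0.041 less its neighbours.

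The mitotic kinesins included the largest rise of a member in H1975, that of KIF18A, and no kinesin fell in any line. Of 8, none was called in PC9 or HCC827, with 0 and 1 higher and 0 lower in limma at an unadjusted p under 0.05, and 3 rose in H1975. KIF18A, which damps chromosome movements at the metaphase plate (chromosome 11 at 28020620 to 28108308), went from control values of 5.65 and 5.63 to 10.99 and 11.2 FPKM and rose by 0.87 ± 0.093 (SE, limma adjusted p = 3.66e-06). In PC9 it stood at 19.0 and 18.8 against 21.5 and 20.2 FPKM, and in HCC827 at 8.37 and 11.1 against 12.1 and 11.6 FPKM. Its ZNF263 libraries were above its controls in every line, by 0.14 ± 0.093 (0.417) in PC9 and 0.27 ± 0.093 (0.0596) in HCC827. KIF20A, a kinesin that carries the passenger complex to the central spindle (chromosome 5 at 138178719 to 138187715), went from control values of 23.5 and 22.6 to 36.4 and 37.7 FPKM in H1975 and rose by 0.66 ± 0.071 (3.45e-06). Its groups overlapped in PC9, at 29.1 and 30.2 against 30.1 and 33.3 FPKM, and in HCC827, at 44.3 and 46.7 against 46.0 and 52.9 FPKM. KIF4A, a chromosome-bound kinesin, rose in H1975 by 0.29 ± 0.057 (0.000617); some of its reads could belong to KIF4B, a close copy. KIF11, KIF23, KIF2C and KIF20B stood between -0.10 and 0.085 in H1975 and were not called.

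Of 4 genes that bind the spindle, 2 rose in PC9 and none was called in HCC827 or H1975. NUSAP1, which bundles microtubules near chromosomes (chromosome 15 at 41332694 to 41381050), stood at 25.6 and 28.7 FPKM in the control libraries and 34.7 and 36.6 FPKM with ZNF263 and rose by 0.38 ± 0.073 (SE, limma adjusted p = 0.00487), the largest change of a member in that line. It was lost without control replicate 1 or ZNF263 replicate 2 of PC9. In HCC827 it stood at 24.3 and 27.5 against 28.3 and 30.3 FPKM and in H1975 at 35.7 and 34.5 against 34.8 and 37.4 FPKM, where its groups overlapped. ASPM, a spindle pole protein (chromosome 1 at 197084128 to 197146694), went from control values of 27.8 and 26.3 to 33.5 and 32.7 FPKM in PC9 and rose by 0.28 ± 0.078 (0.0334), a call lost without any 1 PC9 library. It stood at 14.8 and 17.95 against 18.4 and 18.6 FPKM in HCC827 and 9.98 and 9.67 against 10.6 and 11.3 FPKM in H1975, with no overlap in either and changes of 0.18 and 0.14 that were not called. HMMR and DLGAP5, both spindle assembly factors, were called in no line, and of these 4 genes limma gave 3 higher in HCC827 and 0 in H1975 at an unadjusted p under 0.05. The change of NUSAP1 in H1975 less that in PC9 was -0.34 ± 0.10 (0.0143).

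Of 4 cytokinesis genes, 1 rose and 1 fell in H1975. ANLN, a scaffold of the contractile ring (chromosome 7 at 36389806 to 36453791), stood at 69.7 and 75.1 FPKM in the control libraries and 113 and 120.1 FPKM with ZNF263, and rose by 0.68 ± 0.095 (SE, limma adjusted p = 3.95e-05). Its groups overlapped in PC9, at 56.6 and 57.8 against 55.9 and 59.9 FPKM, and in HCC827, at 72.9 and 92.5 against 80.7 and 92.1 FPKM. RACGAP1, a subunit of the central spindle complex, went from control values of 38.8 and 38.7 to 33.2 and 34.3 FPKM and fell by 0.19 ± 0.055 (0.00776), a call lost without ZNF263 replicate 1 of H1975. Less the median change of its neighbouring genes RACGAP1 stood above 0, at 0.50 (5.39e-06), while ANLN kept 0.58 of its rise (0.000198). ECT2, the exchange factor that RACGAP1 recruits, stood at -0.15 in H1975 (0.0907). PRC1, which bundles the microtubules of the central spindle, rose in PC9 by 0.20 ± 0.058 (0.0435), from control values of 81.0 and 84.7 to 91.4 and 99.5 FPKM, a call lost in 11 of 20 alternatives.

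The chromosomal passenger complex carries AURKB, the sister kinase of AURKA, and its scaffold INCENP rose in HCC827 and H1975. INCENP (chromosome 11 at 62123973 to 62153163) stood at 23.0 and 22.7 against 23.1 and 23.1 FPKM in PC9, 18.4 and 17.6 against 19.99 and 21.2 FPKM in HCC827 and 16.0 and 16.0 against 21.2 and 21.4 FPKM in H1975, with no overlap in any line. It rose by 0.18 ± 0.053 (SE, limma adjusted p = 0.03) in HCC827, a call lost in 8 of 20 alternatives, and by 0.39 ± 0.053 (2.69e-05) in H1975. BIRC5, survivin, rose in H1975 by 0.21 ± 0.071 (0.0176), and was not called without control replicate 2 or either ZNF263 replicate of that line. CDCA8, borealin, was called in none, at 0.19, -0.14 and -0.018. TOP2A, the topoisomerase that untangles mitotic chromosomes (chromosome 17 at 40388516 to 40417950), went from control values of 97.9 and 115 to 133 and 141 FPKM and rose by 0.37 ± 0.073 (0.00408) in HCC827, the only call of that line kept in every alternative. It stood at 165 and 171 against 161 and 172 FPKM in PC9, where its groups overlapped, and at 70.7 and 73.1 against 76.9 and 84.3 FPKM in H1975. MKI67, the proliferation antigen that coats mitotic chromosomes, rose in H1975 by 0.19 ± 0.061 (0.0155), and was not called without either control or ZNF263 replicate 2 of that line.

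The genes of mitotic exit split in H1975. CDC20, the activator of the anaphase-promoting complex (chromosome 1 at 43358955 to 43363203), stood at 102 and 101 FPKM in the control libraries and 148 and 148 FPKM with ZNF263, and rose by 0.54 ± 0.070 (SE, limma adjusted p = 1.80e-05). UBE2C, the ubiquitin-conjugating enzyme of the same complex (chromosome 20 at 45812576 to 45816957), went from control values of 123 and 123 to 92.4 and 101 FPKM and fell by 0.35 ± 0.064 (0.000335). PTTG1, securin, its substrate, fell by 0.28 ± 0.057 (0.000817), from control values of 81.9 and 85.4 to 68.6 and 68.9 FPKM, and some of its reads could belong to PTTG2, a close copy. In PC9 CDC20 stood at 105 and 107 against 118 and 113 FPKM and UBE2C at 67.5 and 64.2 against 67.6 and 69.2 FPKM, and in HCC827 at 259.6 and 222 against 213 and 236 FPKM and 171 and 161 against 143 and 161 FPKM. None of the 3 was called in PC9 or HCC827, nor had an unadjusted p under 0.05 in limma. FOXM1 and MYBL2, the transcription factors that activate mitotic genes, rose in H1975 by 0.21 ± 0.061 (0.00844) and 0.29 ± 0.059 (0.000813), and FOXM1 was not called without control replicate 2 of that line. FOXM1 went from control values of 36.4 and 33.1 to 40.6 and 40.0 FPKM and MYBL2 from control values of 62.7 and 63.6 to 77.3 and 77.5 FPKM. In PC9 and HCC827 they stood between -0.041 and 0.16, with no call.

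Position on the chromosome moved with many of the changes in H1975. In that line 39.9% of tested genes had neighbours whose median change lay beyond 0.2 in either direction, against 0% in PC9 and 0.43% in HCC827, and so did 15 of the 45 members. Neighbours were the nearest tested genes that are no members, 10 on each side and 20 in all, and NDC80 had 16. NEK2 fell by 0.50 ± 0.069 where its neighbours had a median of -0.48, which left -0.027 (limma SE kept, adjusted p = 0.757). CENPF, on the same chromosome at 214603195 to 214664588, rose among neighbours at -0.37 and stood at 0.75 less that median (3.29e-06). For CDK1 the median was -0.31, which left -0.05 (0.542), and for UBE2C it was -0.22, which left -0.13 (0.0921). For RACGAP1 it was -0.70, and the change less the neighbours turned to 0.50 (5.39e-06). KIF18A lay among neighbours at 0.53 and CDC20 among neighbours at 0.32, and both were still called, at 0.33 (0.00862) and 0.22 (0.0151). KIF20A and ANLN, with neighbours at 0.035 and 0.10, kept 0.63 (7.43e-06) and 0.58 (0.000198).

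Less the neighbours, 22 members rose and 2 fell in H1975, against 57.6% of all genes called (28.8% in each direction), and the median change was 0.18. Of the 8 falls, BUB1 (-0.38, limma adjusted p = 0.00129) and PTTG1 (-0.28, 0.000857) were kept and RACGAP1 turned to a rise. Of the 18 rises 14 were kept, and those of CDCA3, KIF4A, BIRC5 and FOXM1 were lost. BUB1B, KIF20B, DLGAP5, ASPM, NUSAP1, PRC1 and TOP2A, which had not been called, rose relative to their neighbours. AURKA, among neighbours at -0.18, stood at -0.19 (0.107) and was no longer called. In PC9 the same adjustment left 4 rises and 0 falls (11.9% of all genes called, 7.73% higher and 4.18% lower) and in HCC827 1 and 0 (19.0%, 9.4% higher and 9.63% lower). Why neighbouring genes moved together in H1975 was not tested, and whether its control and ZNF263 cells differ in copy number was not tested. An effect of ZNF263 and such a difference cannot be told apart in this table.

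**Figure D5:**
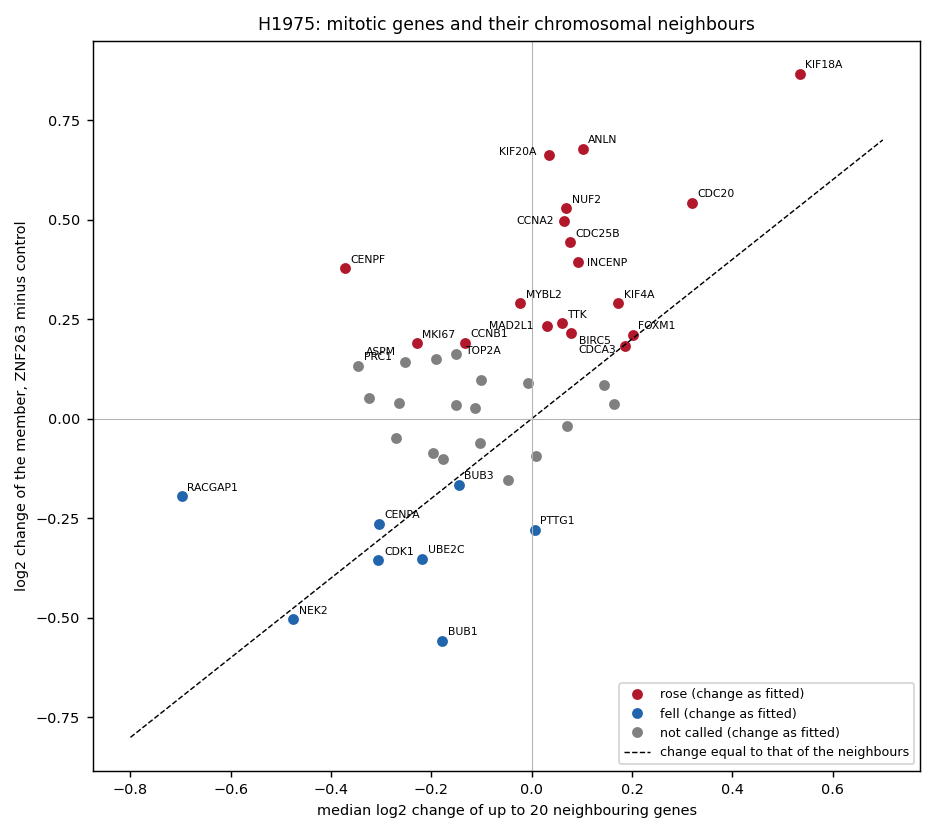
Change of each of the 45 members in H1975 (y axis) against the median change of its up to 20 neighbouring genes (x axis), both on the log2(FPKM + 1) scale, coloured by the call of the change as fitted. NEK2, CENPA, CDK1 and BUB3 fell and lie near the dashed line of equal change, BUB1 and PTTG1 lie below it, and RACGAP1, with neighbours at -0.70, lies far above it.

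Across the lines, the mean of the 3 changes was called higher for 21 members and lower for 3 (CDK1, BUB1 and UBE2C), 53.3% against 52.9% of all 12218 genes, and 28.9% and 23.9% of all genes were called higher and lower. The median of this mean change was 0.10, against 0.015 over all genes. Each of these 3 was called lower in H1975 and not in PC9 or HCC827, and no member's mean was called lower less the neighbours. The largest means were those of KIF18A at 0.42 ± 0.054 (SE, limma adjusted p = 3.18e-05), KIF20A at 0.29, CDC25B at 0.26 and ANLN at 0.25. CDC25B and INCENP were the 2 members that rose in more than 1 line, against 8.18% of all 12218 genes, and 0 members fell in more than 1, against 4.8%. Of the others, 29 were called in 1 line (51.9% of all genes) and 13 in none (28.1%). AURKA's mean change was -0.88 ± 0.055 (limma adjusted p = 6.18e-08). This mean includes the AURKA values in PC9 and HCC827 that are in doubt, and the fall in H1975 was not called less the neighbours.

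The change differed between lines for 24 of 45 members by an F test, 53.3% against 60.3% of all genes, a share below the background. The change in H1975 differed from that in PC9 for 20 members (44.4% against 54.1% of all genes, 12 higher and 8 lower) and from that in HCC827 for 18 (40.0% against 53.7%, 9 and 9). Between HCC827 and PC9 the change differed for TOP2A alone (2.22% against 9.6% of all genes, of which 5.29% higher and 4.3% lower), by 0.38 ± 0.10 (SE, limma adjusted p = 0.0377). That call was lost without any 1 PC9 library, either H1975 control, HCC827 control replicate 1 or either HCC827 ZNF263 replicate, and without HCC827 control replicate 2 the count was 8. Over all genes this difference was called higher for 649 and lower for 528 genes, against 422 and 675 with median-of-ratios scaling, under which CDCA8 was the 1 member called. For AURKA the change in HCC827 less that in PC9 was 0.64 ± 0.13 (limma adjusted p = 0.0101). Both of these changes rest on the AURKA values that are in doubt.

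Other mitotic genes, from lists outside the 45, were called in both directions in H1975 and less often in the other lines. Of all genes, 11.3% were called in PC9, 19.5% in HCC827, and 32.1% higher and 32.1% lower in H1975. In PC9 no gene of the lists below but AURKA was called. In HCC827 a smaller part of them was called than of all genes, a difference that was not tested. Among 8 Aurora and Polo kinases and activators, AURKA included, AURKA was the 1 called lower in PC9, AURKA and PLK1 were in HCC827, and 3 rose and 3 fell in H1975. At an unadjusted p under 0.05 limma gave 1, 0 and 3 higher and 1, 3 and 3 lower in PC9, HCC827 and H1975. The median change of this list was -0.11, -0.023 and 0.016 in the same order. PLK1, the Polo kinase that AURKA activates, fell by 0.21 ± 0.061 (SE, limma adjusted p = 0.0313) in HCC827 and rose by 0.39 ± 0.061 (9.98e-05) in H1975, and TACC3, a spindle partner of AURKA, fell by 0.46 ± 0.057 (1.42e-05) there. Of 16 outer kinetochore genes, none was called in PC9 or HCC827 (limma gave 1 higher and 1 lower in each at an unadjusted p under 0.05), and 5 rose and 5 fell in H1975, with ZW10 up by 0.83 ± 0.091 (4.20e-06). Of 17 inner centromere genes, 0, 1 and 5 rose and 0, 0 and 1 fell in PC9, HCC827 and H1975, with 0, 2 and 5 higher and 1, 0 and 1 lower in limma at an unadjusted p under 0.05. CENPI rose by 0.73 ± 0.10 (4.55e-05) in H1975. Of 15 condensin and cohesin genes 0, 1 and 6 rose and 0, 1 and 3 fell (0, 2 and 6 higher and 1, 1 and 4 lower unadjusted), with SMC2 up by 0.84 ± 0.085 (1.86e-06) in H1975. Of 14 genes of the anaphase-promoting complex 0, 0 and 1 rose and 0, 0 and 5 fell (0, 0 and 1 higher and 1, 0 and 5 lower unadjusted), and UBE2S, which extends ubiquitin chains, had means of 168 FPKM in the H1975 controls and 87.4 with ZNF263 and fell there by 0.94 ± 0.069 (1.04e-07). List medians lay between -0.11 and 0.11 over these lists and lines, against medians over all genes of 0, 0.045 and 0.0025.

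Of markers of other cell types, all 5 endothelial markers were under 1 FPKM in every library, with CDH5 and VWF at 0 in PC9. Of the immune markers CD3E was at 0 in PC9. The list's sum went from 41.8 to 42.5 FPKM in the HCC827 controls to 30.9 to 36.4 FPKM with ZNF263, where CD68 fell. In H1975 that sum ran from 85.0 to 85.5 in the controls and from 79.2 to 84.9 FPKM with ZNF263, as CD14 rose and CD68 fell. CD68 took up most of both sums, with control means of 41.5 FPKM in HCC827 and 82.0 FPKM in H1975. Of the 6 immune markers, 5 in HCC827 and 4 in H1975 were under 1 FPKM in every library of the line. The fibroblast sum was 5.88 to 7.05 FPKM in PC9, with COL1A2, LUM and THY1 at 0, and 20.4 to 21.95 FPKM in HCC827. The epithelial sum ran from 2258 to 2282 FPKM in the PC9 controls and from 3439.8 to 3622 FPKM with ZNF263. There 3 of 6 were called higher, and 3 of 6 were under 1 FPKM in every PC9 library. In HCC827 the epithelial sum ran from 2506 to 2822 FPKM.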

How the data were processed

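Expression was measured by RNA-seq in 12 libraries, 2 for each of 6 groups. The authors deposited FPKM values in 1 table, with genome build GRCh38.p13 per the submitters' processing notes. Not given in the sources used here are the aligner, counter, annotation and strand setting, so reads of overlapping or antisense genes cannot be told apart. Left out were 27 entries with dates for names. The value of 1 marker gene is not reported here. Depth was read from the step of 1 read in FPKM: whole numbers (tolerance 0.0003) were found for 99.3%, 99.6% and 98.6% of 2000 sampled genes per line, and reads are minimums, as a common factor may be missing.

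Values were taken as log2(FPKM + 1), which understates changes of low genes, for genes at 1 FPKM or more in 2 or more libraries. limma 3.58.1 in R 4.3.3 (trended prior variance) fitted 1 mean per group with shared spread, tested two-sided, with Benjamini-Hochberg adjustment over all genes of a contrast. The fit was tested on simulated data. Changes were computed as ZNF263 minus control in each line, their mean, and their differences.

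Members and gene lists were chosen with earlier results of these data known. Library values are given for members called alike in 2 or more lines or oppositely, for the 3 largest rises and falls per line, and for the 3 highest and 3 lowest control levels, and of other lists at most 2 called genes per line are named; further members' values were chosen after they were seen. Alternatives were pseudocount 0.1, no filter or a 5 FPKM filter, median-of-ratios and quantile scaling, each line alone, a replicate block, the change less neighbours, and leaving out each library. Genes were placed by GRCh38 annotations. Python 3.11.15 was used for tables and figures.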

Additional observations from a re-analysis of the deposited data

Results flagged for a closer look

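For 24 of the 45 members the change with ZNF263 differed between the lines by the limma F test (adjusted p between 9.07e-05 and 0.0485). The value given for each is its largest change less its smallest over the 3 lines, on the log2(FPKM + 1) scale. Among genes of mitotic entry it was NEK2 0.7467, CCNA2 0.5297, CDK1 0.4500, CDC25C 0.4280, CDC25B 0.3262 and CCNB2 0.2602. For the checkpoint kinase BUB1 it was 0.6997 and for BUB3 0.2846, and for the kinetochore and centromere genes NUF2 and CENPA it was 0.4798 and 0.3472. The kinesins gave KIF18A 0.7293, KIF20A 0.5702 and KIF4A 0.3515. Spindle and cytokinesis genes gave ANLN 0.6611, ECT2 0.3574, RACGAP1 0.3540 and NUSAP1 0.3401. The passenger subunits INCENP and CDCA8 gave 0.3768 and 0.3289, and TOP2A gave 0.3784. Exit genes and the factor MYBL2 gave CDC20 0.6428, UBE2C 0.4047, PTTG1 0.3431 and MYBL2 0.3309. A share of 60.3% of all genes passed the same test, so a difference between lines does not set these members apart.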

How the results depend on the processing

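In PC9, 5 members were called higher, 3 with no filter on low values. The median change there was 0.054, 0.064 with quantile normalization and 0.076 less the neighbours. In HCC827, 4 were called higher, and 1 with median-of-ratios scaling, with each line fitted alone and less the neighbours. In H1975, 8 were called lower and 2 less the neighbours, with the median change going from 0.098 to 0.18. Of the means over the lines, 3 were called lower, and 0 were less the neighbours. A change of sign that involved a call came only with the neighbours taken off in H1975, for BUB1B (0.22), CDCA3 (-0.0040), CENPA (0.041) and RACGAP1 (0.50). Leaving out 1 library at a time gave 1 to 5 members called higher in PC9, 1 to 12 in HCC827 and 12 to 20 in H1975, 0 to 0, 0 to 1 and 6 to 8 called lower, 18 to 25 higher and 2 to 4 lower means, and 18 to 27 that differed between lines. The medians ran from 0.034 to 0.061, 0.054 to 0.16 and 0.072 to 0.19. With a replicate block, 5, 5 and 19 were called higher, 0, 0 and 9 lower, 25 and 3 by the mean, and 23 differed between lines. Over all tested genes, deviations of same-numbered libraries correlated at 0.037, 0.089 and -0.043, so the main fit did not pair them. These correlations do not describe the members alone, most of which were higher in replicate 2 of both HCC827 groups. Of the single-member values under the alternatives, 2498 kept their direction and side of the threshold, 79 lost and 40 gained a call, 79 changed sign without a call on either side, and 4, named above, changed sign where a call was involved. Kept in every alternative were 0 of 5 calls in PC9, 1 of 4 in HCC827 and 12 of 26 in H1975. A library left alone in its group is assumed to vary like the others. Both the 2 libraries a group and, for members near the lowest read number of 200, counting error limit the small changes of PC9 and HCC827, and an uncalled change does not show equal levels.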

Other observations

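Counts for other gene groups stand beside called shares of 11.3%, 19.5% and 64.2% of all genes in PC9, HCC827 and H1975. Of 11 genes of the DREAM and MuvB complexes, which hold mitotic genes down or activate them, 1, 1 and 2 rose and 0, 1 and 5 fell in PC9, HCC827 and H1975 (1, 3 and 2 higher and 2, 1 and 5 lower in limma at an unadjusted p under 0.05). In H1975 E2F5 fell by 0.58 ± 0.10 (SE, limma adjusted p = 0.000276) and TFDP1, the partner of E2F factors, fell by 0.39 ± 0.051 (2.15e-05). In HCC827 RBL2, a pocket protein of DREAM, rose by 0.33 ± 0.063 (0.00361) and E2F4 fell by 0.24 ± 0.049 (0.0057).

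Of 17 DNA replication genes of the G1/S transition, 2, 2 and 8 rose and 0, 1 and 6 fell (3, 2 and 8 higher and 2, 1 and 6 lower at an unadjusted p under 0.05). MCM6, a subunit of the replicative helicase, rose by 0.24 ± 0.046 (limma adjusted p = 0.00487) in PC9. In HCC827 CCNE1 fell by 0.43 ± 0.093 (0.00693) while its sister cyclin CCNE2 rose by 0.38 ± 0.12 (0.0371). In H1975 RRM2, the ribonucleotide reductase subunit, had a mean of 119 FPKM in the controls and 71.1 with ZNF263, and it fell by 0.74 ± 0.049 (3.58e-08), and MCM5 rose by 0.57 ± 0.063 (4.37e-06).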
